A study of Mus musculus with 4 samples.

Results

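Socs3, Id1, Id3, Fgf4, Lefty1 and Lefty2 are target genes of the signalling pathways that act in mouse embryonic stem cells, and their surroundings were examined for reads of an LSD1 and an H3K4me2 chromatin immunoprecipitation (ChIP). LSD1 is an enzyme that takes methyl groups off lysine 4 of histone H3 when it carries few of them. H3K4me2, lysine 4 with a pair of methyl groups, marks promoters and enhancers. The 6 genes were taken as 5 windows of the mm9 mouse genome, set by gene location and not by any read count, with Lefty1 and Lefty2 in 1 window. The genes themselves were chosen with earlier results of these data known. The Socs3 window ran on chromosome 11 from 117815001 to 117840000, the Id1 window on chromosome 2 from 152550001 to 152575000 and the Id3 window on chromosome 4 from 135690001 to 135710000. The Fgf4 window ran on chromosome 7 from 152035001 to 152060000, and the shared window of Lefty1 and Lefty2 on chromosome 1 from 182810001 to 182880000. Together they spanned 165 kb and held 13 of the 5106 deposited LSD1 peaks, 43 of the 32256 H3K4me2 peaks and 0 of the 158 peaks of the control IgG library.

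The 4 libraries came from R1 cells, a 129SV embryonic stem cell line, at passages 13 to 18, grown on gelatin with leukaemia inhibitory factor (LIF) at 1000 U/ml. They were ChIP with an antibody labelled as against LSD1 (5833862 reads), ChIP with an antibody against H3K4me2 (6416657 reads), ChIP with control IgG (4755619 reads) and Input, which is DNA of the same material without immunoprecipitation (3801082 reads). The same LIF medium was used for all 4, so none of them shows a pathway switched off. With 1 library a group, no difference was checked against replicates and no p-value was computed. Every interval (95%) of reads covers only the error of counting, and intervals of shares of peaks treat the peaks as independent. The labels give the LSD1 antibody a catalogue number that belongs, as far as is known, to a different supplier's antibody against H3K27me3, so LSD1 is here the label's name. ChIP reads measure no expression, so the cell type was not checked against markers, and in bulk chromatin fewer cells with a mark and less of it per cell cannot be told apart.

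LIF activates the transcription factor STAT3 through JAK kinases, and this pathway sustains self-renewal of mouse embryonic stem cells. Socs3, a direct STAT3 target, codes for an inhibitor of the LIF receptor and of JAK and so closes a feedback loop. BMP4 acts through SMAD1 and SMAD5 on Id1 and Id3, whose proteins bind basic helix-loop-helix factors and keep them from DNA. Fgf4 codes for the growth factor by which the cells stimulate their own ERK pathway and become able to differentiate, and it is a classic target of OCT4 and SOX2. Lefty1 and Lefty2 are induced by Nodal through SMAD2 and SMAD3 and code for secreted inhibitors of Nodal. In the order of genes of a RefSeq table for another assembly, GRCm38.p6, Fgf4 stands between Fgf3 and Fgf15, and Id1 precedes Cox4i2. No annotation of mm9 was used here, so no peak below was assigned to a promoter, an exon or one of these neighbours.

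RefSeq promoters of GRCm38.p6 (250 bases before to 50 after the gene start) matched 3 of the 6 genes, and they are shown because each carries letters that the factors of these pathways, or the general promoter factors of the SP family, are known to bind. They are on chr11:117969317-117969616 (minus strand) for Socs3, chr4:136143572-136143871 (plus strand) for Id3 and chr7:144861136-144861435 (plus strand) for Fgf4. These positions belong to GRCm38.p6 and not to the build of the reads. Capitals mark matches on either strand to TTCNNNGAA (STAT factors), GGCGCC (a GC-rich element of BMP-activated SMADs) and GGGCGG (SP factors).
Socs3: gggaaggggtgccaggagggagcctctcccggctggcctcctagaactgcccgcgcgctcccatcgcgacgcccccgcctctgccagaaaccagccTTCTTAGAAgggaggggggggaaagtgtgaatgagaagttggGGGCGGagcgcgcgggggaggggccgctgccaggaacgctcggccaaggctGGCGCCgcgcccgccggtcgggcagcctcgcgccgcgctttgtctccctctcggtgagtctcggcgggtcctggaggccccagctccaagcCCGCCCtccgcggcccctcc
Id3: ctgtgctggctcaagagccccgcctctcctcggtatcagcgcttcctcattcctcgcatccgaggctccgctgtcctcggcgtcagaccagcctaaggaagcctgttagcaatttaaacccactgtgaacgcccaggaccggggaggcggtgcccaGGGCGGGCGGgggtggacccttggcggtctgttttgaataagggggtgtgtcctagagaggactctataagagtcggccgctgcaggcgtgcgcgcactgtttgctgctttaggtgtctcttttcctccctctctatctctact
Fgf4: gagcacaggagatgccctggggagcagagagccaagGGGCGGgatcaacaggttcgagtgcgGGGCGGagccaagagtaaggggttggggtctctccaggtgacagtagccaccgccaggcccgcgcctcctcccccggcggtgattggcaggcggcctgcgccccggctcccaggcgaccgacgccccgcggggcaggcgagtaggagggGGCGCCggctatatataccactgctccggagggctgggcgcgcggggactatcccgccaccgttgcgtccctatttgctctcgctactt
The Socs3 promoter held the only TTCNNNGAA match of the 3, at position 97 from its first base, and 8.30% of all 32851 promoters in the table hold one. GGCGCC occurred once in Socs3, at position 190, and once in Fgf4, at position 212, against 11.9% of all promoters. GGGCGG occurred 2 times in each of the 3, with both matches overlapping in Id3, against at least 1 match in 35.7% of all promoters. ATGCAAAT (octamer, 1.74% of all promoters) and TATAAA (a core promoter element, 13.6%) were searched as well and matched in none of the 3 promoters. Only these exact letters were searched, so variants of either element would be missed. The GC content was 73.3% in Socs3, 60.0% in Id3 and 69.7% in Fgf4, against a median of 52.7% over all promoters. The ratio of observed to expected CpG was 0.769 in Socs3, 0.704 in Id3 and 0.774 in Fgf4, against a median of 0.384. A match is a description of letters and not a measured binding site.

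Across whole windows both ChIP libraries exceeded control IgG around every one of the genes, while the list of LSD1 peaks left Fgf4 out. Levels are given per 1000000 reads sequenced from each library (RPM), with reads counted once per start and strand. The LSD1 to IgG ratio lay between 2.16 and 2.69 and the H3K4me2 to IgG ratio between 3.31 and 4.78. The interval lay above 1 in 5 of 5 windows for both. Among autosomal tiles of 25 kb it did so in 9.32% for LSD1 and 13.7% for H3K4me2, among tiles of 20 kb in 8.74% and 12.9%, and among tiles of 70 kb in 12.9% and 17.1%. The median ratio to IgG over tiles of 25 kb was 0.880 for LSD1 and 0.677 for H3K4me2. The tiles lie anywhere on the autosomes and the windows on genes, so the tiles describe the genome and are no matched control.

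Around Socs3, the STAT3 feedback inhibitor, the 25 kb window held 412 LSD1 reads (Poisson interval 373 to 454) and 806 H3K4me2 reads (751 to 864), against 125 IgG reads (104 to 149) and 61 Input reads (46.7 to 78.4). LSD1 exceeded IgG 2.69-fold (2.19 to 3.31) and H3K4me2 exceeded it 4.78-fold (3.95 to 5.82), the highest of the 5 windows for both. Of autosomal tiles of 25 kb, 99.97% held fewer H3K4me2 reads, but 99.8% also held fewer IgG reads and 96.2% fewer Input reads. IgG itself stood 1.64-fold over Input (1.20 to 2.26), and its part in the ratios of this and the other windows was not tested. Against Input the ratios were 4.40 (3.36 to 5.86) for LSD1 and 7.83 (6.03 to 10.3) for H3K4me2.

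The Id1 window held 335 LSD1 reads (300.1 to 373) and 565 H3K4me2 reads (519 to 614), against 114 IgG reads (94.0 to 137) and 60 Input reads (45.8 to 77.2). That is 2.40-fold over IgG (1.93 to 2.99) for LSD1 and 3.67-fold (2.999 to 4.53) for H3K4me2. Around Id3, the other inhibitor of helix-loop-helix factors, the 20 kb window held 216 LSD1 reads (188 to 247) and 322 H3K4me2 reads (288 to 359), against 72 IgG reads (56.3 to 90.7) and 46 Input reads (33.7 to 61.4). Id3 had the lowest H3K4me2 ratio of the 5 windows, 3.31 (2.56 to 4.34), beside an LSD1 ratio of 2.45 (1.86 to 3.24). IgG stood 1.52-fold over Input at Id1 (1.10 to 2.11) and 1.25-fold at Id3, where the interval (0.852 to 1.85) held 1. Against Input the Id1 ratios were 3.64 (2.76 to 4.87) for LSD1 and 5.58 (4.27 to 7.41) for H3K4me2.

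The Fgf4 window held 329 LSD1 reads (294 to 367) and 662 H3K4me2 reads (613 to 714), against 124 IgG reads (103 to 148) and 58 Input reads (44.0 to 75.0). LSD1 exceeded IgG 2.16-fold (1.75 to 2.68), the lowest of the 5 windows, and H3K4me2 exceeded it 3.96-fold (3.26 to 4.83). The IgG to Input ratio was the highest of the 5, at 1.71 (1.24 to 2.38), and against Input the ratios were 3.70 (2.79 to 4.97) for LSD1 and 6.76 (5.16 to 9.003) for H3K4me2. With Input as the control the lowest LSD1 ratio was therefore that of the Lefty window, at 2.77 (2.36 to 3.27). That window of 70 kb around the Nodal inhibitors held 787 LSD1 reads (733 to 844) and 1489 H3K4me2 reads (1414 to 1567), against 279 IgG reads (247 to 314) and 185 Input reads (159 to 214). Its ratios to IgG were 2.30 (2.003 to 2.65) for LSD1 and 3.96 (3.48 to 4.51) for H3K4me2.

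The windows were hardly ordered beyond counting error. From high to low the LSD1 to IgG ratio ran Socs3, Id3, Id1, Lefty1 and Lefty2, Fgf4, and in 0 of the 10 pairs of windows did the interval of the ratio of ratios (exact conditional odds ratio) exclude 1. For Socs3 over Fgf4, the extremes, it was 1.24 (0.922 to 1.67). For H3K4me2 to IgG it excluded 1 in 1 pair, Socs3 over Id3, at 1.44 (1.03 to 2.001). LSD1 relative to H3K4me2, which needs no control library, was 0.738 (0.618 to 0.879) at Id3, 0.652 (0.568 to 0.748) at Id1 and 0.581 (0.533 to 0.634) at Lefty1 and Lefty2. It was 0.562 (0.498 to 0.634) at Socs3 and 0.547 (0.477 to 0.625) at Fgf4. Its median over autosomal tiles was 1.21 for tiles of 20 kb and of 25 kb and 1.19 for tiles of 70 kb. A value of 1 is therefore not its level in the genome at large. The interval excluded 1 in 3 of the 10 pairs: Id3 exceeded Fgf4 by a factor of 1.35 (1.08 to 1.69) and the Lefty window by 1.27 (1.04 to 1.55), and Socs3 had 0.762 of the Id3 value (0.615 to 0.945). With the interval widened for 10 pairs, none of these 4 excluded 1.

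**Figure D1:**
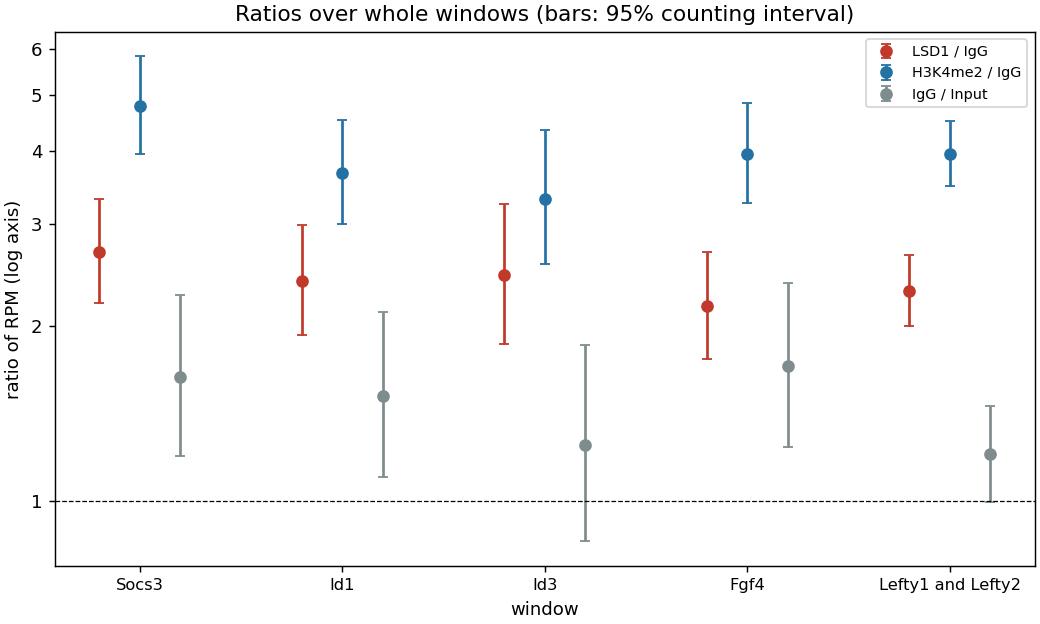
Ratios of RPM over each whole window (log axis) for LSD1 to IgG, H3K4me2 to IgG and IgG to Input, with 95% counting intervals as bars and a dashed line at 1. The LSD1 ratios sit between 2.16 and 2.69 and the H3K4me2 ratios between 3.31 and 4.78, all above 1, whereas the IgG to Input interval holds 1 at Id3 and at the Lefty window.

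Called LSD1 peaks lay in 4 of the 5 windows: 3 at Socs3, 3 at Id1, 3 at Id3, 0 at Fgf4 and 4 at Lefty1 and Lefty2. Of autosomal tiles, 4.4% of those of 25 kb, 3.62% of those of 20 kb and 10.2% of those of 70 kb held at least 1 LSD1 peak. As many as 3 were found in 0.190% of tiles of 25 kb and in 0.133% of tiles of 20 kb, and as many as 4 in 0.473% of tiles of 70 kb. H3K4me2 peaks numbered 10, 6, 5, 6 and 16 in the same order of windows and covered 48.7%, 31.0%, 23.0%, 30.0% and 27.3% of them. At least 1 H3K4me2 peak was found in 17.8% of tiles of 25 kb, 15.4% of those of 20 kb and 32.4% of those of 70 kb. All tiles are therefore a poor match for windows rich in the mark. Among tiles with at least as many H3K4me2 peaks as the window, the median was 3 LSD1 peaks for the Lefty window (40 tiles). It was 1 for Socs3 (31 tiles), for Id1 and Fgf4 (559) and for Id3 (818). No LSD1 peak was found in 7.5%, 29.0%, 36.0% and 41.4% of these tiles, in that order. With the denser 50% of the LSD1 list alone, 8 LSD1 peaks remained in the windows.

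**Figure D2:**
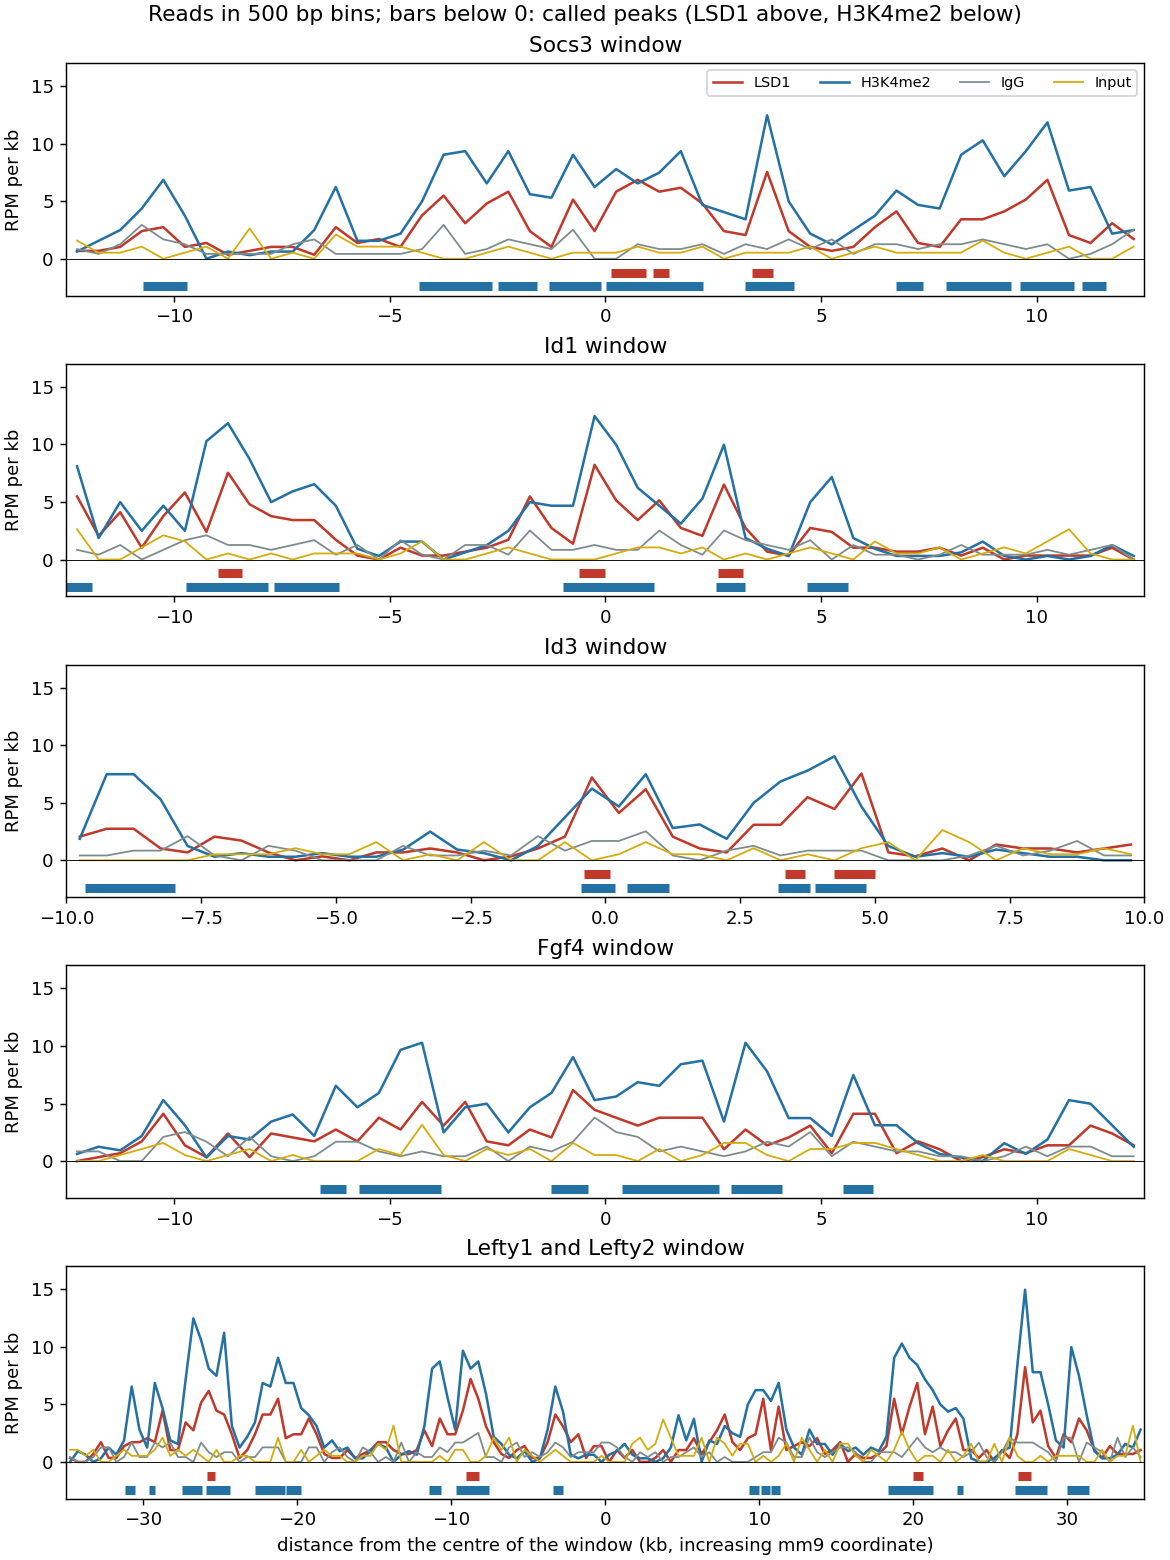
RPM per kb of the 4 libraries in bins of 500 bp along each window, with the distance from the window's centre in kb on the horizontal axis, and called LSD1 peaks (upper bars) and H3K4me2 peaks (lower bars) drawn under 0. LSD1 follows H3K4me2 in all 5 windows, and the Fgf4 window is the one with 6 H3K4me2 bars and no LSD1 bar.

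At Socs3 the 3 LSD1 peaks stood close together, with centres 0.745 kb and 2.37 kb apart. The first (117827628 to 117828444) held 34 LSD1 and 42 H3K4me2 reads, against 3 IgG and 3 Input reads, an LSD1 to IgG ratio of 9.24 (2.91 to 47.0). The second (117828597 to 117828965) held 14 LSD1 and 19 H3K4me2 reads, against 1 IgG and 0 Input reads. The third (117830906 to 117831393) held 20 LSD1 and 46 H3K4me2 reads, against 1 IgG and 2 Input reads. Over the 3 together LSD1 exceeded IgG 11.1-fold (4.53 to 35.2) and Input 8.86-fold (3.62 to 28.2), on only 5 IgG and 5 Input reads. IgG stood at 0.628 RPM per kb in these peaks, against 1.05 over the window. Input was not low there, at 0.786 RPM per kb against 0.642 over the window. All 3 fell in 1 stretch of 5 H3K4me2 peaks, joined across gaps of up to 1 kb, that ran 8690 bp from 117823178 to 117831867. Of the other H3K4me2 peaks in the window, 4 formed a second stretch of 4879 bp with no LSD1 peak. The densest of these 4 for the mark, from 117837106 to 117838363, nevertheless held 36 LSD1 reads against 5 IgG reads.

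At Id1 the LSD1 peaks were spread over 3 separate H3K4me2 stretches, with centres 8.40 kb and 3.22 kb apart. The first (152553518 to 152554067) held 24 LSD1 and 45 H3K4me2 reads, against 3 IgG reads and 1 Input read. The second (152561883 to 152562494) held 26 LSD1 and 42 H3K4me2 reads, against 4 IgG and 0 Input reads. Its 1 kb bin, from 152562001 to 152563000, was the bin with the most reads of the window for both ChIPs, 39 LSD1 and 72 H3K4me2 reads. The third (152565123 to 152565696) held 25 LSD1 and 36 H3K4me2 reads, against 5 IgG and 0 Input reads, and filled most of an H3K4me2 peak of 676 bp. The 3 peaks were alike in LSD1 reads, and together exceeded IgG 5.09-fold (2.75 to 10.3).

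At Id3 the first LSD1 peak (135699613 to 135700082) held 20 LSD1 and 20 H3K4me2 reads, against 6 IgG and 0 Input reads. It had the highest LSD1 to H3K4me2 ratio of the 13 peaks, 1.10 (0.562 to 2.15), and was the only 1 of them whose H3K4me2 to IgG interval (0.957 to 7.52) held 1. The second (135703339 to 135703699) held 15 LSD1 and 33 H3K4me2 reads and no IgG or Input read. With IgG put at the 3 reads that a count of 0 allows, its LSD1 to IgG ratio was 4.08. The lower end of its interval, which also covers the counting error of LSD1, was 2.92. The third (135704237 to 135704998) held 33 LSD1 and 38 H3K4me2 reads, against 4 IgG and 2 Input reads. It reached past the end of the called H3K4me2 peak at 135704835, while the other 12 LSD1 peaks lay wholly inside 1 H3K4me2 peak. Among the Id3 peaks IgG was highest, at 6 reads, in the one where LSD1 relative to H3K4me2 was highest.

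In the window of Lefty1 and Lefty2 the 4 LSD1 peaks were far apart, with centres 17.0 kb, 29.0 kb and 6.89 kb from each other, each in an H3K4me2 stretch of its own. The first (182819158 to 182819646) held 21 LSD1 and 28 H3K4me2 reads, against 1 IgG and 1 Input read. The second (182835955 to 182836767) held 33 LSD1 and 51 H3K4me2 reads, against 10 IgG reads and 1 Input read, the highest IgG count of the 13 peaks. The third (182864999 to 182865630) held 24 LSD1 and 36 H3K4me2 reads, against 6 IgG and 0 Input reads, and the fourth (182871802 to 182872606) held 29 LSD1 and 69 H3K4me2 reads, against 7 IgG reads and 1 Input read. The last 3 had LSD1 to IgG ratios of 2.69 to 3.38, with 6 to 10 IgG reads each. The third LSD1 peak lay in the widest H3K4me2 peak of all windows, 2968 bp long from 182863334 to 182866301, with 158 H3K4me2 reads. Another 6 H3K4me2 stretches of this window held no LSD1 peak.

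**Figure D3:**
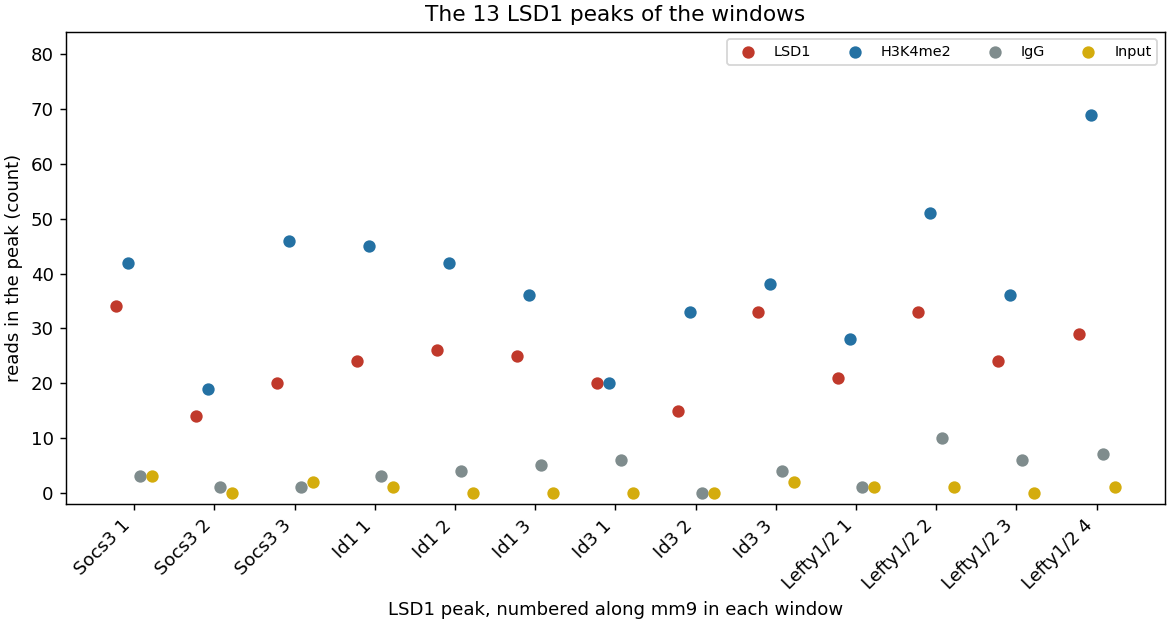
Read counts of the 4 libraries in each of the 13 LSD1 peaks, numbered along mm9 within each window. LSD1 counts run from 14 to 34 and IgG counts from 0 to 10, and H3K4me2 equals or exceeds LSD1 in every peak.

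Over the 13 LSD1 peaks the counts were 318 LSD1 and 505 H3K4me2 reads, against 51 IgG and 11 Input reads. The LSD1 to IgG ratio was 5.08 (3.77 to 6.97), with 4.45 (4.38 to 4.51) over all 5106 LSD1 peaks. In 13 of 13 the single-peak interval lay above 1, as in 89.6% of all LSD1 peaks; these peaks were called on the same LSD1 reads, so nothing is read from that count. H3K4me2, from a library of its own, exceeded IgG with an interval above 1 in 12 of 13, beside 87.3% of all LSD1 peaks. All 13 overlapped an H3K4me2 peak, as did 91.7% of all LSD1 peaks. The median width was 574 bp, against 461 bp in the whole list, and the median count 24 LSD1 reads, against 19. Reads of both strands were present in all 13, with at least 4 on the weaker strand. LSD1 relative to H3K4me2 was lower in the 13 peaks than over the whole list, at 0.693 (0.600 to 0.799) against 0.852 (0.845 to 0.858). The whole list also holds LSD1 peaks without an H3K4me2 peak, and a comparison limited to those with one was not made. The LSD1 peaks had 10.2 RPM per kb of H3K4me2, against 7.11 in the remaining 11.4 kb of the 12 H3K4me2 peaks that overlap them. For LSD1 the densities were 7.04 and 3.72, an order that the calling on these reads fixes. In the remainder LSD1 stood 3.49-fold over IgG (2.61 to 4.72).

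The 43 H3K4me2 peaks come from the list of the H3K4me2 library, so their choice did not rest on a call in the LSD1 library. LSD1 exceeded IgG in them 3.41-fold (2.997 to 3.89), close to 3.38 (3.36 to 3.40) over all H3K4me2 peaks, and with Input as the control the value was 7.53 (6.16 to 9.28). The single-peak LSD1 interval lay above 1 in 30 of the 43, or 69.8%, against 54.4% of all H3K4me2 peaks. For the mark itself it did so in 43 of 43, against 97% of all, on reads the peaks were called from. These 43 were wider and richer than the list, with a median width of 1003 bp and 49 H3K4me2 reads, against 734 bp and 32, which narrows a single-peak interval. An LSD1 peak was held by 12 of the 43, or 27.9% (exact interval 15.3 to 43.7), against 14.2% of all H3K4me2 peaks.

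The H3K4me2 peaks with and without an LSD1 peak overlapped in width. Of the 6 H3K4me2 peaks of 2 kb or more, 5 held an LSD1 peak (83.3%, exact interval 35.9 to 99.6), and the exception lay in the Fgf4 window. Among all 971 H3K4me2 peaks of that width the share was 46.2% (43.1 to 49.4). Of the 16 peaks of 1 to 2 kb, 3 held one (18.8%, 4.05 to 45.6), against 25.2% of all, and of the 21 narrower peaks 4 did (19.0%, 5.45 to 41.9), against 9.38% of all. In all 3 classes the interval held the share of the whole list. Median width was 1738.5 bp (587 to 2968) in the 12 peaks with an LSD1 peak and 944 bp (375 to 2251) in the 31 without. The 31 without one were also above IgG for LSD1, 2.93-fold (2.48 to 3.48), with the interval above 1 in 18 of them (58.1%). Over all 27688 H3K4me2 peaks without an LSD1 peak the ratio was 3.23 (3.21 to 3.26), with the interval above 1 in 48.1%.

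**Figure D4:**
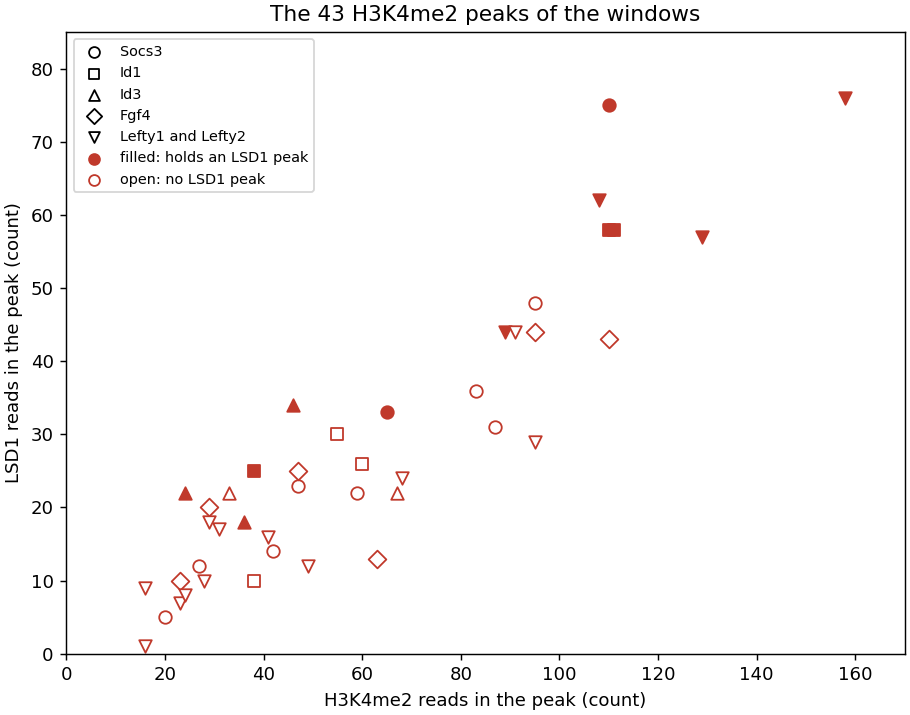
LSD1 reads against H3K4me2 reads in each of the 43 H3K4me2 peaks, with the window as the symbol and filled symbols for peaks that hold an LSD1 peak. The 2 largest Fgf4 peaks, with 44 and 43 LSD1 reads, are open although they carry 95 and 110 H3K4me2 reads.

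The Fgf4 window had H3K4me2 without a called LSD1 peak. Its 6 H3K4me2 peaks held 155 LSD1 and 367 H3K4me2 reads, against 46 IgG and 23 Input reads, and LSD1 exceeded IgG 2.75-fold (1.97 to 3.91). The widest (152047895 to 152050145, 2251 bp) held 43 LSD1 and 110 H3K4me2 reads, against 14 IgG and 4 Input reads, and had an LSD1 to IgG ratio of 2.50. The next (152041777 to 152043699, 1923 bp) held 44 LSD1 and 95 H3K4me2 reads, against 9 IgG and 9 Input reads, with a ratio of 3.99. In 4 of the 6 (66.7%) the LSD1 interval lay above 1. It did so in 70.3% of the 37 H3K4me2 peaks of the other 4 windows and in 54.4% of all H3K4me2 peaks. Among the 25 of those 37 without an LSD1 peak the share was 56%. The lowest LSD1 to H3K4me2 ratio of the 6 was 0.227, in the peak from 152050419 to 152051601 with 13 LSD1 and 63 H3K4me2 reads.

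An LSD1 peak was held by 0 of the 6 H3K4me2 peaks at Fgf4 (exact interval 0 to 45.9%) and by 12 of the 37 in the other 4 windows (32.4%, 18.0 to 49.8). These intervals overlap, but they treat peaks as independent, while the 6 at Fgf4 lay in 3 joined stretches. The comparison was also chosen after the values were seen, so the overlap decides nothing. LSD1 over IgG within H3K4me2 peaks was 2.75 at Fgf4 and 3.53 (3.07 to 4.08) in the other 4 windows. Their quotient was 0.777 with an interval of 0.539 to 1.14. For LSD1 relative to H3K4me2 the quotient was 0.897 (0.729 to 1.10), from 0.465 at Fgf4 and 0.518 in the others. With Input as the control the LSD1 quotient was 0.523 and its interval, 0.315 to 0.897, excluded 1; Input itself stood at 0.808 RPM per kb in the Fgf4 peaks and 0.487 in the others, on 23 and 82 reads. What moved Input at Fgf4 was not tested. In each of these quotients the other windows include the 12 peaks that hold an LSD1 peak, so the call itself favours a lower value at Fgf4. Among H3K4me2 peaks without an LSD1 peak, the quotient for LSD1 over IgG was 0.917 (0.619 to 1.37). For LSD1 relative to H3K4me2 it was 1.04 (0.835 to 1.30) among those peaks.

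At the scale of a peak, the 500 bp with the most LSD1 reads held 19 at Fgf4 (152043051 to 152043550), with 2 IgG and 5 Input reads. The same measure gave 26 at Socs3, 24 at Id1, 25 at Id3 and 25 at Lefty1 and Lefty2, each time in a called LSD1 peak. Over all 5106 LSD1 peaks the densest 500 bp held a median of 19 reads, and 42.0% of the peaks had fewer than the 19 at Fgf4. The search ran over the whole window at Fgf4 but only at each called peak for the list. The wider search favours a higher count at Fgf4, so the measures are unlike. That stretch was also the one with the most Input reads of the 5, where the other 4 held 0 or 1. Of the 559 autosomal tiles of 25 kb with at least 6 H3K4me2 peaks, 36.0% held no LSD1 peak.

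Low LSD1 counts were also found in single H3K4me2 peaks of the other windows. The peak on chromosome 1 from 182815367 to 182815741 in the Lefty window held 1 LSD1 read beside 16 H3K4me2 reads, 3 IgG reads and 1 Input read. The first H3K4me2 peak of the Socs3 window (117816790 to 117817792) held 14 LSD1 and 42 H3K4me2 reads, against 11 IgG and 0 Input reads, so LSD1 stood at 1.04 of IgG (0.438 to 2.53). Both peaks passed the interval over IgG for the mark. At the other end, the Lefty peak from 182817533 to 182818814 held 29 LSD1 and 95 H3K4me2 reads, against 3 IgG and 4 Input reads, without an LSD1 call.

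Between the called peaks the ChIP libraries were lower, though above IgG. In the 114 kb of the windows outside every peak, 876 LSD1 and 1254 H3K4me2 reads were counted, against 429 IgG and 306 Input reads. LSD1 stood 1.66-fold over IgG there (1.48 to 1.87) and H3K4me2 2.17-fold (1.94 to 2.42), with LSD1 from 1.60-fold at Id3 to 1.82-fold at Fgf4. LSD1 relative to H3K4me2 was 0.768 (0.704 to 0.838) outside the peaks and 0.510 (0.476 to 0.546) inside the H3K4me2 peaks. Those peaks were called on the H3K4me2 reads of the denominator, which lowers the ratio inside them, so nothing is read from this order. Both values lay below the median over autosomal tiles, which was 1.19 to 1.21 depending on tile size. The tiles are whole and were not chosen by peaks, so they are no matched comparison. Over the 165 bins of 1 kb, LSD1 and H3K4me2 counts had a Spearman's rho of 0.879, and within single windows of 20 to 70 bins it lay between 0.787 and 0.884. IgG and H3K4me2 had a rho of 0.394, LSD1 and IgG 0.447, and Input and H3K4me2 -0.0953. Within single windows the rho of Input and H3K4me2 was 0.436 at Fgf4 and between -0.377 and -0.102 in the others. Neighbouring bins share fragments and all bins share the 4 libraries, so these are descriptions of the windows.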

How the data were processed

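The data are ChIP-seq of mouse R1 cells, with 1 library each for LSD1, H3K4me2, control IgG and Input. Per the labels' protocols, fixed chromatin was sonicated and libraries of about 200 bp were sequenced as 36-base reads. The genome build was mm9, per the submitters' processing notes. Which aligner, peak caller, threshold and control were applied is not given in the sources used here. The authors deposited a file of aligned reads per library, whose lines give raw counts here, and 3 peak lists with positions only. Reads that share start and strand were absent within each library.

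Each read start was moved 100 bp along its strand and assigned to the region there. Ratios of RPM carry exact binomial intervals conditional on both counts, ratios between windows exact conditional odds ratios, shares Clopper-Pearson intervals and counts Poisson intervals. A count of 0 allowed up to 3 reads (0.631 RPM in IgG, 0.789 in Input). Peaks were assigned to a window by an overlap of at least 1 bp and counted whole; 1 H3K4me2 peak reached past the start of the Id1 window. Tiles needed 25% of the median Input count (a share of 0.25). The single-peak interval was tested on simulated data. The members were chosen with earlier results of these data known. All 6 genes and every peak in their windows were described, the named 1 kb bins being those with the most reads, and the stretches of 500 bp, joined stretches, single low peaks and comparisons of Fgf4 were chosen after values were seen. The wider list of pathway genes was not run, for want of mm9 positions here. Alternatives were starts not moved, Input as control, scaling to reads outside peaks, windows wider by 5 kb, denser peaks and another overlap rule. The tools were scipy 1.17.1, pandas 2.3.3 and numpy 2.4.6 under Python 3.11.15, with matplotlib 3.10.9 for figures.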

Additional observations from a re-analysis of the deposited data

How the results depend on the processing

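For 22 results 69 alternatives were computed, and no ratio among them crossed 1. Some of the 69 are counts or shares of peaks, to which crossing 1 does not apply. Of the 69, 33, for single windows and for Fgf4 against the other windows, were chosen after seeing the data. Of all 69, 50 stayed within the interval of the reported value (a count within 1.5 times) and 19 did not. Leaving out places under IgG peaks changed nothing by construction, since the windows hold none, and 7 of the 50 come from it. With Input as the control, LSD1 over the windows was 3.30, H3K4me2 over the windows 5.55, LSD1 in the H3K4me2 peaks 7.53 and H3K4me2 outside peaks 2.43. Scaled to reads outside all peaks, which are 89.6% of LSD1 and 80.0% of H3K4me2 reads, H3K4me2 to IgG was 4.83 over the windows and 2.62 outside peaks, and LSD1 to H3K4me2 over the windows was 0.531. With windows wider by 5 kb on both sides H3K4me2 to IgG was 3.57. The denser 50% of the list left 8 LSD1 peaks. No paired analysis was possible because there was only 1 library per group. Depth limits single peaks most: IgG held 0 to 18 reads in each of the 43 H3K4me2 peaks, and for Fgf4 against the other windows the choice of control decided whether the interval held 1.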
